A study of Mus musculus with 4 samples.

Results

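The purine receptor and adenosine-handling genes were examined in the injured mouse hippocampus. Members were found by gene symbol: the P2X and P2Y nucleotide receptors, the adenosine receptors, the Entpd nucleotidases with Nt5e, adenosine kinase (Adk) and deaminase (Ada), the equilibrative nucleoside transporters and the pannexins. They came to 35 of the 22609 gene symbols in the files. The microglial receptor genes P2ry12 and P2ry13 are described with the related genes instead. RNA came from the hippocampus of ovariectomized C57BL/6 mice that carried estradiol (E2) mini pumps. All had undergone global cerebral ischemia (GCI), in which the blood supply of the whole forebrain is cut off for a time, followed by 24 h of reperfusion. The control genotype was FLOXED, and the other was PELP1 FBKO, a forebrain knockout of PELP1, a co-regulator of estrogen receptors. Each genotype had 2 libraries. The Cre driver, the animals' age and whether a library held 1 animal or a pool are not stated in the labels. No library was free of ischemia or of estradiol, so genotype differences present before either cannot be told apart from later ones.

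Injured cells release ATP, which acts on P2X receptors, which are cation channels, and on P2Y receptors, which signal through G proteins. Enzymes on the cell surface break ATP down stepwise: Entpd proteins remove phosphates to leave AMP, and Nt5e (CD73) turns AMP into adenosine. Adenosine then acts on its own receptors, of which A1 dampens transmitter release in the hippocampus, until transporters carry it into cells and Adk or Ada clears it.

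Reads assigned to genes came to between 17524594 and 22447658 per library, and the members took between 0.101% and 0.102% of them. Pelp1 had 468 and 569 reads in FLOXED and 396 and 353 in PELP1 FBKO, with both PELP1 FBKO levels below both FLOXED levels (log2 fold change -0.59, SE 0.149, adjusted p = 0.130 by edgeR's quasi-likelihood test). The 7 markers of hippocampal excitatory neurons had reads in every library. Levels are given as CPM, counts scaled to library size with TMM, a correction for library composition. Every fold change is PELP1 FBKO minus FLOXED on the log2 scale, from a fit over 14978 genes. No source used here says that replicate libraries stem from different animals, and the p-values then reflect only how far these libraries vary, which may be technical.

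The enzyme gene Entpd2 had the smallest p-value of the group and had a level 2.47 times as high in PELP1 FBKO, with 28.4 ± 2.68 CPM (SD, n = 2) against 11.5 ± 0.447 CPM (SD, n = 2) in FLOXED. The receptor genes P2ry14, P2ry1 and P2rx7 followed, with log2 fold changes of 1.05, 1.03 and 0.95. Adora1, the most abundant member per length, differed between genotypes by less than the spread within them. In bulk tissue, fewer cells of a type and less RNA per cell cannot be told apart, and the summed oligodendrocyte markers were also higher in PELP1 FBKO, at 5801 and 6222 CPM against 2904 and 3702 CPM. Their part in the result was not tested. Of the 35 members 33 had a read in some library, and 30 passed the filter on low counts and were tested. In the quasi-likelihood test 0 of the 30 passed an adjusted p of 0.05, as did 0% of all genes. Counting unadjusted p-values under 0.05 instead, 8 of the 30 members lay higher in PELP1 FBKO, against 10.1% of all genes tested, and 2 lay lower, against 5.55%. The higher count was 6 without FLOXED 1 and 5 without PELP1 FBKO 2, in the latter case with Entpd1, Entpd5 and Adk no longer in it. The lower count was 0 without FLOXED 1 and 0 without PELP1 FBKO 1. Both PELP1 FBKO libraries lay above both FLOXED libraries for 11 of the 30, against 25.4% of all genes, and below them for 7, against 23.0%. The median fold change of the 30 was 0.13 on the log2 scale, and that of all genes tested was 0.000155.

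Other tests called a few members. The edgeR exact test called 4 of 30 higher (Entpd2, P2rx7, P2ry1 and P2ry14), against 3.75% of all genes, and 0 lower, against 1.32%. DESeq2 called 1 of the 29 members with an adjusted p higher, Entpd2, against 2.20% of genes, and 0 lower, against 0.895%. Limma-voom called 0.

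**Figure D1:**
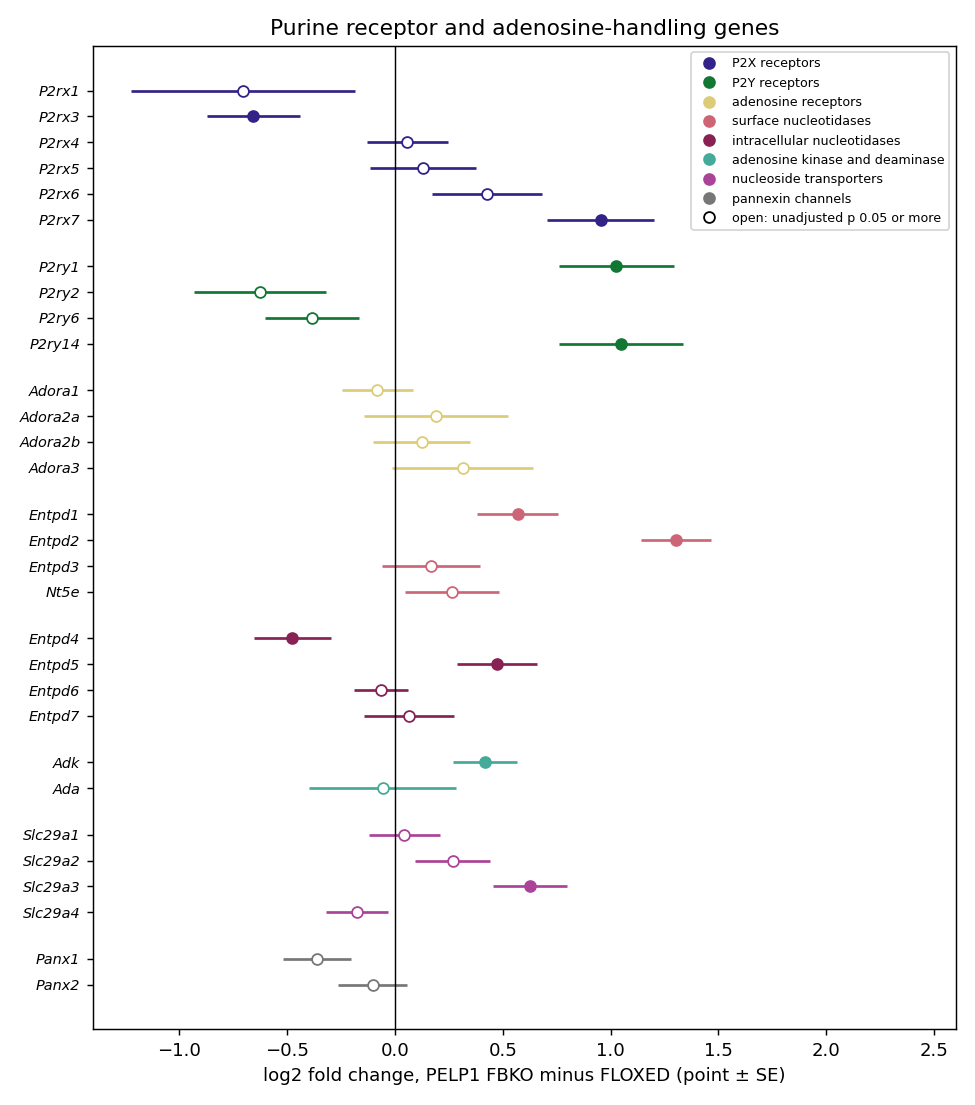
Log2 fold change (PELP1 FBKO minus FLOXED, x axis) of the 30 tested members, grouped and coloured by role; bars are the standard error and filled points have an unadjusted p under 0.05. Entpd2 lies farthest to the right at 1.30, and P2rx1, at -0.71, has the widest bar.

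The promoters of the 4 members that the exact test called are shown because these genes were higher in both PELP1 FBKO libraries; they were chosen after their values were seen. Each is the 250 bases before the outermost annotated start, 5′ to 3′ on the gene's strand, from RefSeq with build GRCm38.p6. Capitals mark matches on either strand to 3 motifs: the half-site of the estrogen response element (GGTCA), the AP-1 site (TGAGTCA) and the GC box (GGGCGG). They lie at chr2:25395624-25395873 (+) for Entpd2, chr5:122643677-122643926 (+) for P2rx7, chr3:61002535-61002784 (+) for P2ry1 and chr3:59153493-59153742 (-) for P2ry14.
Entpd2: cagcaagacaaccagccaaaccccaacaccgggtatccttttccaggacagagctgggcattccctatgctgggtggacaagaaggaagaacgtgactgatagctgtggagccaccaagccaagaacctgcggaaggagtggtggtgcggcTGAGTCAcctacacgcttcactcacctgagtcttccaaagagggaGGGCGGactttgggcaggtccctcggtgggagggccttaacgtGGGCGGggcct
P2rx7: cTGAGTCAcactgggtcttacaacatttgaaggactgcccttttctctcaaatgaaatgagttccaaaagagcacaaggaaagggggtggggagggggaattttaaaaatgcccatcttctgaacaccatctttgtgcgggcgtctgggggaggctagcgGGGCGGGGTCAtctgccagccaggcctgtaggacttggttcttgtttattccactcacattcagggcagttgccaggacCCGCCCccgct
P2ry1: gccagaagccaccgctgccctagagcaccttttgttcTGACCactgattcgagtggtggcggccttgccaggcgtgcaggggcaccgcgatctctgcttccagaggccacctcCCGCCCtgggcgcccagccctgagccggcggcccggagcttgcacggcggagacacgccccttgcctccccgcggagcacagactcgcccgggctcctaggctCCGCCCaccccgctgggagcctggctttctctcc
P2ry14: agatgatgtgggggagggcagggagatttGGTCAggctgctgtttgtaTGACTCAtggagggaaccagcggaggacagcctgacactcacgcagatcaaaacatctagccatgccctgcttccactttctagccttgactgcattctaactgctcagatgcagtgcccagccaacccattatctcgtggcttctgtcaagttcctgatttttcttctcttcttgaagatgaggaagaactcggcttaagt

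Positions count back from the start, with -1 the base before it. Entpd2 held an AP-1 match at -99 and GC boxes at -54 and -11. The P2rx7 window held an AP-1 match at -249, a half-site at -84 that directly followed a GC box at -90, and a further GC box at -11. In P2ry1 a half-site lay at -213 and GC boxes at -137 and -34. P2ry14 had a half-site at -221 and an AP-1 match at -202. No GC box was found in the P2ry14 window. Thus 3 of the 4 windows held an AP-1 match and 3 held a half-site. Over all 32851 promoter windows of that length, 4.46% held AP-1, 35.2% the half-site and 32.7% the GC box. Of the 44 windows of members, from 27 genes with an entry, 6 held AP-1, 16 the half-site and 19 the GC box. The full estrogen response element, GGTCANNNTGACC, was in 0 of the 44 and in 0.0639% of all windows. These matches describe the letters of the windows and are not binding data.

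Among the P2X channels, P2rx7 was higher in both PELP1 FBKO libraries and P2rx3 lower, each at an unadjusted p under 0.05, and the other 4 tested members of the family did not reach that p. P2rx7 encodes a channel opened by high ATP that is known from microglia and the oligodendrocyte lineage. Its level was 5.65 and 7.94 CPM in FLOXED against 11.1 and 15.4 CPM in PELP1 FBKO, from 99, 172, 244 and 314 reads. The groups did not overlap, and the libraries of a genotype differed by 1.41 times in FLOXED and 1.39 times in PELP1 FBKO. The log2 fold change was 0.95 (SE 0.248), and the adjusted p was 0.137 by the quasi-likelihood test. It was called by the exact test (adjusted p = 0.0251), and without PELP1 FBKO 1 the quasi-likelihood test called it too (adjusted p = 0.00237). Its adjusted p ranged from 0.00237 to 0.445 over 13 alternatives.

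P2rx3, best known as a channel of sensory neurons, was at 7.36 and 6.78 CPM in FLOXED against 4.26 and 4.70 CPM in PELP1 FBKO. All 4 libraries had reads of it, between 94 and 147. The fold change was -0.66 (SE 0.216, adjusted p = 0.208), and replicates lay within 1.10 times of each other. P2rx3 and the abundant gene Ssrp1 share 12 exonic bases on opposite strands in GENCODE vM21. Because the counting is not stated to use strand, reads there cannot be assigned with certainty.

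P2rx4, a channel of microglia and neurons, was at 16.4 and 15.9 CPM in FLOXED against 14.4 and 19.2 CPM in PELP1 FBKO. Its FLOXED values lay between the PELP1 FBKO values, and the log2 fold change was 0.06 (SE 0.189, adjusted p = 0.917). For P2rx5 the libraries lay between 3.64 and 4.55 CPM with overlap. P2rx6 was lowest in FLOXED 1, at 4.51 CPM, and lay between 7.06 and 8.02 CPM in the other libraries, with a fold change of 0.43 (SE 0.255). P2rx1 had 17 and 13 reads in FLOXED and 8 and 12 in PELP1 FBKO, with a fold change of -0.71 (SE 0.519), too few reads for a firm statement. The channel gene P2rx2 had between 1 and 4 reads per library and was not tested.

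Per kilobase of exon, the P2X family summed to 14.9 and 15.6 CPM per kb in FLOXED and 14.8 and 17.7 in PELP1 FBKO, so the sums overlapped. P2rx4 made up between 36.0% and 40.7% of that sum in the 4 libraries. The P2rx7 share was 6.86% and 9.23% in FLOXED and 13.5% and 15.8% in PELP1 FBKO. P2rx3 took 24.9% and 22.0% of the sum in FLOXED and 14.5% and 13.4% in PELP1 FBKO. Within a library, P2rx7 had 0.345 and 0.499 reads per P2rx4 read in FLOXED and 0.770 and 0.799 in PELP1 FBKO, a ratio that needs no scaling between libraries.

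P2Y receptors split as well: P2ry1 and P2ry14 were higher in both PELP1 FBKO libraries, and P2ry2 and P2ry6 lay lower in both knockout libraries without reaching an unadjusted p of 0.05. P2ry1 encodes an ADP receptor of neurons and astrocytes. It was at 2.68 and 3.28 CPM in FLOXED against 6.98 and 5.19 CPM in PELP1 FBKO, from 47, 71, 154 and 106 reads. Its fold change was 1.03 (SE 0.266, adjusted p = 0.137), and the exact test called it (adjusted p = 0.0320). The quasi-likelihood test called it without PELP1 FBKO 2 (adjusted p = 0.0117), and the adjusted p reached 0.426 without FLOXED 1. In GENCODE vM21, 23.1% of its exonic bases are shared with an opposite-strand gene, Gm37035, so part of its reads could belong to that gene.

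P2ry14 encodes a receptor for UDP-glucose and other UDP sugars. It was at 1.77 and 2.35 CPM in FLOXED against 3.94 and 4.65 CPM in PELP1 FBKO, from 31, 51, 87 and 95 reads. Both knockout libraries were above both controls, with a fold change of 1.05 (SE 0.287, adjusted p = 0.147, and 0.0395 by the exact test). P2ry14 is a low gene, and its adjusted p ranged from 0.0395 to 0.451 over 12 alternatives.

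P2ry6, the UDP receptor of microglia linked to phagocytosis, was at 8.67 and 9.23 CPM in FLOXED against 5.89 and 7.84 CPM in PELP1 FBKO. The groups did not overlap, but the gap was smaller than the spread within PELP1 FBKO, and the fold change was -0.38 (SE 0.217, adjusted p = 0.436). P2ry2, a receptor for ATP and UTP, was at 2.40 and 2.54 CPM in FLOXED against 1.68 and 1.52 CPM in PELP1 FBKO (fold change -0.62, SE 0.307, adjusted p = 0.379). P2ry4 had 1 read in PELP1 FBKO 2 and 0 in the other libraries. No read of P2ry10 was found (0 in all 4 libraries), so its level could be as high as 0.171 CPM in FLOXED 1, the shallowest library, with 3 reads as the limit that counting error sets.

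P2ry6 was the leading P2Y gene per kilobase in every library, with 69.6% and 67.2% of the family's sum in FLOXED and 46.9% and 55.7% in PELP1 FBKO. P2ry1 took 9.76% and 10.8% of it in FLOXED and 25.2% and 16.7% in PELP1 FBKO. The P2ry14 share was 8.90% and 10.7% against 19.7% and 20.8%. The sums themselves overlapped, at 6.40 and 7.06 CPM per kb in FLOXED and 6.45 and 7.22 in PELP1 FBKO.

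Adenosine receptor genes differed between genotypes by less than, or about as much as, libraries of a genotype did. Adora1, the A1 receptor gene, was at 307 and 366 CPM in FLOXED against 352 and 285 CPM in PELP1 FBKO. FLOXED 2 was highest and PELP1 FBKO 2 lowest, the groups overlapped, and the fold change was -0.08 (SE 0.165, adjusted p = 0.855). Its sign turned without FLOXED 2 (0.04) and without PELP1 FBKO 2 (0.06). Adora2a, an adenosine receptor gene known for its high level in striatum, was low, at 1.65 and 1.94 CPM in FLOXED against 1.72 and 2.40 CPM in PELP1 FBKO (fold change 0.19, SE 0.335). Adora2b was at 4.96 and 4.57 CPM against 4.94 and 5.44 CPM (0.12, SE 0.225). Adora3 lay between 1.43 and 2.11 CPM, with both knockout libraries slightly above both controls (0.31, SE 0.327, adjusted p = 0.690). Per kilobase, Adora1 made up between 91.3% and 94.4% of the adenosine receptor sum in each library, and 20.1% of its exonic bases lie opposite exons of Mybph.

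On the cell surface, Entpd2 was higher in both PELP1 FBKO libraries by a wide margin and Entpd1 by less, while Entpd3 and Nt5e overlapped between genotypes. Entpd2, which removes a phosphate from ATP to leave ADP and is known from astrocyte and stem-cell surfaces, was at 11.2 and 11.8 CPM in FLOXED against 26.5 and 30.3 CPM in PELP1 FBKO. The counts behind these levels were 196, 256, 585 and 619 reads. Replicates lay within 1.06 times of each other in FLOXED and 1.14 in PELP1 FBKO, far less than the 2.47-fold gap between genotypes. The log2 fold change was 1.30 (SE 0.163), with an adjusted p of 0.0501, just above the threshold, in the quasi-likelihood test. Entpd2 passed in 11 of 13 alternatives, including DESeq2 (adjusted p = 3.85e-06) and the exact test (adjusted p = 2.04e-07). Its fold change ranged from 1.21 to 1.38, and its adjusted p was highest, at 0.215, without FLOXED 1. No other gene's exons overlap those of Entpd2 in GENCODE vM21.

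Entpd1 (CD39), which carries ATP and ADP down to AMP on microglia and vessels, was at 10.5 and 12.1 CPM in FLOXED against 15.1 and 18.5 CPM in PELP1 FBKO. The groups were apart, with a fold change of 0.57 (SE 0.187, adjusted p = 0.207). Entpd3, a neuronal relative, was at 9.41 and 11.9 CPM in FLOXED, and PELP1 FBKO 2 lay between these at 9.94 CPM (0.17, SE 0.227). Nt5e, the source of adenosine from AMP, was at 7.30 and 5.86 CPM in FLOXED against 8.48 and 7.30 CPM in PELP1 FBKO, so FLOXED 1 and PELP1 FBKO 2 met (fold change 0.27, SE 0.218, adjusted p = 0.592). Entpd8 had between 0 and 3 reads per library and was not tested.

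Per kilobase, the 4 surface enzymes Entpd1, Entpd2, Entpd3 and Nt5e summed to 12.7 and 13.8 CPM per kb in FLOXED and to 23.3 and 24.6 in PELP1 FBKO. Entpd2 supplied 45.3% and 44.2% of that sum in FLOXED and 58.7% and 63.6% in PELP1 FBKO. The Nt5e share was 14.3% and 10.6% in FLOXED and 9.09% and 7.42% in PELP1 FBKO. In reads of the same library, Entpd2 stood to Nt5e at 1.53 and 2.02 in FLOXED and at 3.13 and 4.15 in PELP1 FBKO. Entpd2 stood to Entpd1 at 1.07 and 0.977 in FLOXED and at 1.76 and 1.64 in PELP1 FBKO. Neither ratio overlapped between genotypes, while that of Entpd1 to Nt5e did, from 1.44 to 2.06 in FLOXED and from 1.78 to 2.54 in PELP1 FBKO. With 2 libraries against 2 these ratios were not tested.

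**Figure D2:**
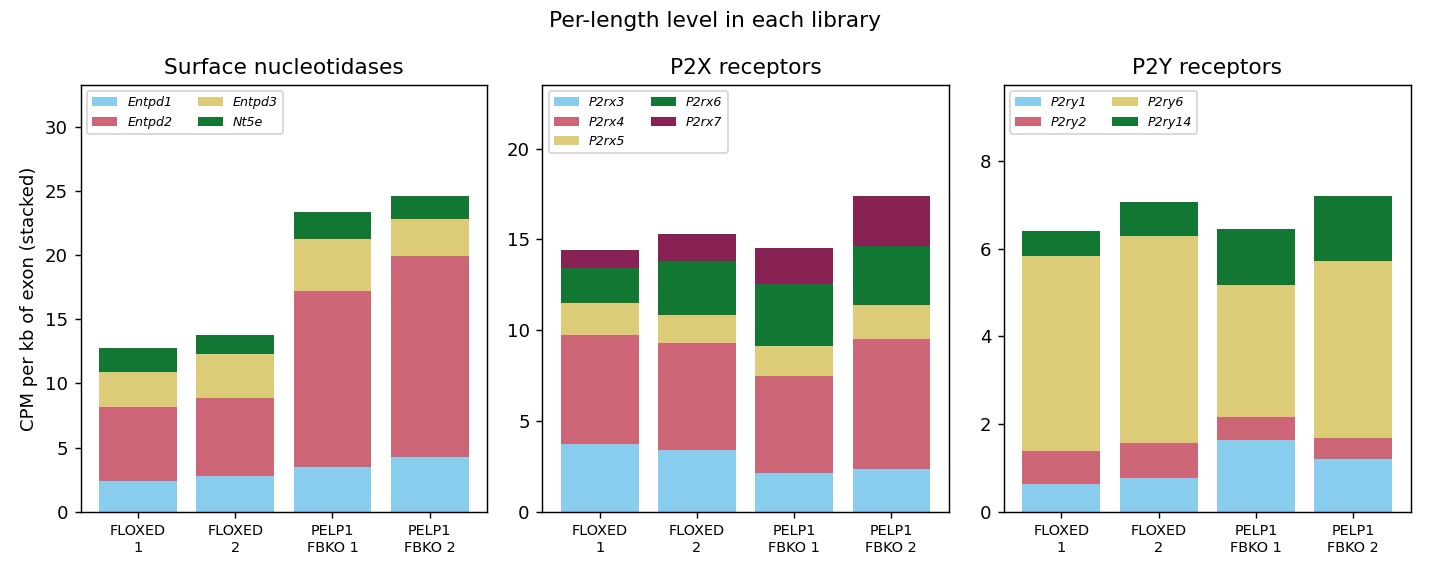
Stacked bars of CPM per kilobase of exon in each library for surface nucleotidases, P2X receptors (without P2rx1 and P2rx2) and P2Y receptors (without P2ry4 and P2ry10). The nucleotidase bars are taller in both PELP1 FBKO libraries through Entpd2, while the receptor bars overlap in height and differ in make-up.

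The intracellular Entpd enzymes remove phosphates from nucleotides inside the secretory pathway and lysosomes. Of their genes, Entpd4 was lower and Entpd5 higher in both PELP1 FBKO libraries, at an unadjusted p under 0.05. Entpd6 and Entpd7 overlapped. Entpd4 was at 183 and 139 CPM in FLOXED against 102 and 129 CPM in PELP1 FBKO (fold change -0.48, SE 0.179, adjusted p = 0.261). FLOXED 2 and PELP1 FBKO 2 lay closer to each other than either lay to its own replicate. Entpd4 counts are also uncertain, because GRCm38 carries a copy, Entpd4b, whose 3589-base transcript is identical. Reads that map to more than 1 place were not counted. Whether the mm9 build used by the submitters holds this copy is not known, and between 2258 and 3208 Entpd4 reads per library were counted. Entpd5, an enzyme of the endoplasmic reticulum that supports glycoprotein folding, was at 27.3 and 38.6 CPM in FLOXED against 43.4 and 48.3 CPM in PELP1 FBKO. Its fold change was 0.48 (SE 0.185, adjusted p = 0.272), and it was called without FLOXED 2 (0.74, adjusted p = 0.0410). Entpd6, at 94.5 and 89.0 against 91.6 and 83.9 CPM, and Entpd7, between 8.28 and 10.9 CPM, overlapped between genotypes (-0.06, SE 0.127, and 0.06, SE 0.209).

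Inside cells, Adk, which phosphorylates adenosine back to AMP and is an astrocyte enzyme in adult brain, was somewhat higher, and Ada was not. Adk was at 61.8 and 54.4 CPM in FLOXED against 70.3 and 85.0 CPM in PELP1 FBKO, from 1084 to 1736 reads. The groups did not overlap, and the fold change was 0.42 (SE 0.147, adjusted p = 0.235). Ada, which converts adenosine to inosine, had between 25 and 43 reads per library, at 1.43 and 1.98 CPM against 1.63 and 1.67 CPM (fold change -0.06, SE 0.340). Per kilobase Adk made up between 96.0% and 97.8% of the pair in every library.

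Among the nucleoside transporters, Slc29a3 had the smallest p. This gene encodes ENT3, the lysosomal carrier, and it was at 11.3 and 13.2 CPM in FLOXED against 18.2 and 19.8 CPM in PELP1 FBKO, from 199, 287, 402 and 405 reads. The fold change was 0.63 (SE 0.171, adjusted p = 0.147), on the same side in all 13 alternatives (0.52 to 0.73). Slc29a1 (ENT1), the main adenosine carrier of the cell surface, was at 23.9 and 20.4 CPM against 24.3 and 21.4 CPM, so its groups overlapped (0.04, SE 0.164, adjusted p = 0.927). Slc29a2 (ENT2) was at 12.1 and 14.8 against 16.2 and 16.3 CPM (0.27, SE 0.175). Slc29a4, which carries monoamines and at acid pH adenosine, had the most CPM per kb of the family, with 40.6 and 44.9 CPM against 40.5 and 35.2 CPM, and its fold change was -0.17 (SE 0.144). In reads, Slc29a3 stood to Slc29a1 at 0.475 and 0.648 in FLOXED and at 0.751 and 0.927 in PELP1 FBKO.

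Pannexins form large channels that can release ATP. Panx1 was at 24.9 and 21.8 CPM in FLOXED against 18.3 and 18.0 CPM in PELP1 FBKO, with no overlap, a fold change of -0.36 (SE 0.157) and an adjusted p of 0.322. Panx2, a neuronal pannexin of intracellular membranes, was at 106 and 111 CPM against 116 and 86.9 CPM, so that PELP1 FBKO held both the highest and the lowest value (fold change -0.10, SE 0.160). Panx3 had 0 reads in every library.

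**Figure D3:**
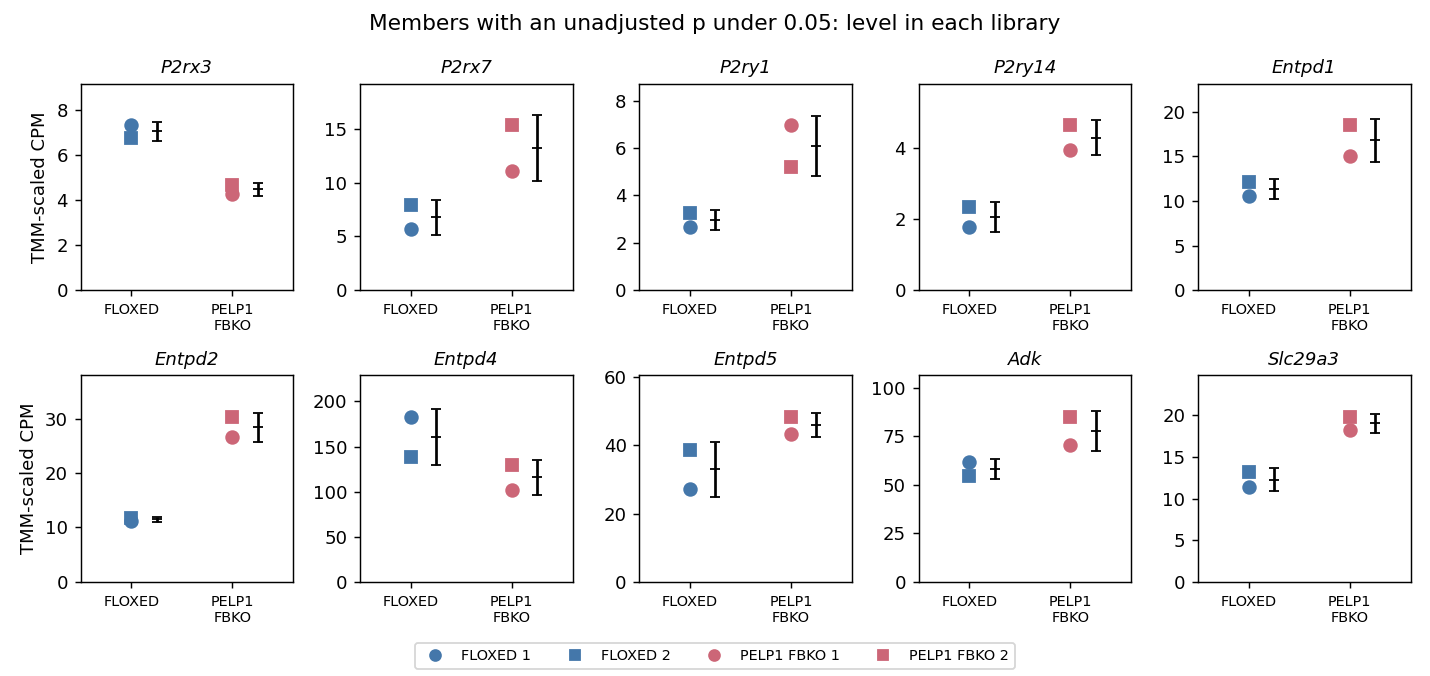
TMM-scaled CPM (y axis, from 0) of the 10 members with an unadjusted p under 0.05, with 1 point per library; the black bar beside each pair is the mean ± SD. The Entpd2 libraries sit at 11.2 and 11.8 CPM against 26.5 and 30.3 CPM, while in the Entpd4 and Entpd5 panels the FLOXED libraries lie farther apart than the nearest libraries of the 2 genotypes.

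Per length, the order of the members was led by Adora1 at 56.6 CPM per kb averaged over the libraries, followed by Entpd6 at 35.3, Adk at 34.8, Entpd4 at 33.1 and Panx2 at 30.6. The libraries of Entpd6, Adk, Entpd4 and Panx2 overlapped in range, so these neighbours cannot be ranked. Slc29a4 at 14.5 and Entpd2 at 10.3 came next, and in PELP1 FBKO the ranges of this pair met, at 14.5 and 12.6 CPM per kb for Slc29a4 and 13.7 and 15.7 for Entpd2. In FLOXED, Slc29a4 was at 14.6 and 16.1 CPM per kb and Entpd2 at 5.78 and 6.10, well apart. P2rx1 was the lowest tested member, at 0.253.

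Many markers of glia and of other cell types also had higher levels in PELP1 FBKO, and some had lower levels. The 8 oligodendrocyte markers all had a positive fold change (0.71 to 1.20), and their summed level was 2904 and 3702 CPM in FLOXED against 5801 and 6222 CPM in PELP1 FBKO. All 8 astrocyte markers were positive too (0.11 to 1.13), summing to 5863 and 6683 against 7498 and 9397 CPM. Of 10 microglial markers 8 were positive and 2 negative (-0.67 to 1.04), with sums of 491 and 497 against 542 and 694 CPM. The negative markers, Fcrls (-0.67, SE 0.166) and Olfml3 (-0.48, SE 0.195), were lower in both PELP1 FBKO libraries. None of these 26 markers was at 0 in a library. Outside glia, all 8 endothelial and mural markers were positive (0.04 to 0.93), with sums of 142 and 196 CPM in FLOXED and of 248 and 243 CPM in PELP1 FBKO. Of 6 meningeal fibroblast markers 5 were positive, summing to 126 and 155 against 169 and 242 CPM. Of 6 interneuron markers 5 were positive, summing to 963 and 907 against 1182 and 1253 CPM. The 7 excitatory neuron markers had 3 positive and 4 negative fold changes, and their sums overlapped. Most of each sum was Camk2a, at 3561 and 3932 CPM in FLOXED against 4607 and 3376 CPM in PELP1 FBKO. The sums therefore hide a split among the less abundant markers. Dsp (0.95, SE 0.218) and Prox1 (0.93, SE 0.196) were higher in both PELP1 FBKO libraries. Wfs1 (-0.79, SE 0.236), Fibcd1 (-0.65, SE 0.143) and Neurod6 (-0.35, SE 0.172) were lower in both. No endothelial, meningeal or neuronal marker of these lists was at 0 in a library.

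Members were therefore also set against these sums. Per 1000 CPM of astrocyte markers, Entpd2 was at 1.91 and 1.77 CPM in FLOXED and 3.54 and 3.23 in PELP1 FBKO, still without overlap. Against oligodendrocyte markers it was at 3.85 and 3.19 in FLOXED and 4.57 and 4.87 in PELP1 FBKO. Entpd2 thus kept a higher value per summed marker CPM in both knockout libraries for both lists, with a smaller gap for the oligodendrocyte list. These sums rest on a few abundant genes. Gfap and Slc1a2 made up most of each astrocyte sum, and Mbp most of each oligodendrocyte sum. Gfap itself was at 2382 and 2258 CPM in FLOXED against 1500 and 3882 CPM in PELP1 FBKO. Ratios of Entpd2 to single markers were not taken. The highest fold changes of the 8 astrocyte markers came near that of Entpd2. Gja1, a gap junction gene, had 1.13 (SE 0.153), and Slc39a12, a zinc transporter gene, 1.05 (SE 0.152). Aqp4, Aldh1l1 and Gfap, at 0.11, 0.12 and 0.21, overlapped between genotypes. Markers of other lists came as near, among them the oligodendrocyte marker Aspa at 1.20 and the meningeal marker Ogn at 1.17.

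For P2rx7 the value per 1000 CPM of microglial markers was 11.5 and 16.0 in FLOXED and 20.4 and 22.1 in PELP1 FBKO. Per 1000 CPM of oligodendrocyte markers the P2rx7 values were 1.94 and 2.14 in FLOXED and 1.91 and 2.47 in PELP1 FBKO, so there the genotypes overlapped. P2ry1 overlapped too against oligodendrocyte markers, at 0.923 and 0.885 in FLOXED and 1.20 and 0.834 in PELP1 FBKO. P2ry14 per 1000 CPM of oligodendrocyte markers was 0.609 and 0.636 in FLOXED and 0.680 and 0.748 in PELP1 FBKO. Against astrocyte markers P2ry1 was at 0.457 and 0.490 in FLOXED and 0.931 and 0.552 in PELP1 FBKO. Adk per 1000 CPM of astrocyte markers was 10.5 and 8.14 in FLOXED and 9.37 and 9.05 in PELP1 FBKO, inside the control range. That sum is mostly Gfap and Slc1a2, and Adk was not set against single astrocyte markers. Of the 8 members higher at an unadjusted p under 0.05, 4 were lower against oligodendrocyte markers in both PELP1 FBKO libraries. These were Adk, Entpd1, Entpd5 and Slc29a3. P2rx6, Adora3 and Slc29a2, higher in both PELP1 FBKO libraries in CPM without reaching that p, were also lower in both against these markers. Adk was there at 21.3 and 14.7 in FLOXED and 12.1 and 13.7 in PELP1 FBKO, and Entpd1 at 3.61 and 3.26 in FLOXED and 2.59 and 2.98 in PELP1 FBKO. The PELP1 FBKO mean was 0.770 of the FLOXED mean for Entpd5 and 0.846 of it for Slc29a3. Per 1000 CPM of endothelial and mural markers Entpd1 overlapped between genotypes, at 74.0 and 61.8 in FLOXED and 60.6 and 76.0 in PELP1 FBKO. Against microglial markers Entpd1 stayed higher in both PELP1 FBKO libraries, at 21.4 and 24.3 in FLOXED and 27.8 and 26.7 in PELP1 FBKO. P2ry6 per 1000 CPM of microglial markers was 17.7 and 18.6 in FLOXED and 10.9 and 11.3 in PELP1 FBKO. It was not set against Fcrls or Olfml3 alone, the microglial markers that were lower in PELP1 FBKO. The part of cell numbers in the member differences was not tested beyond these ratios.

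**Figure D4:**
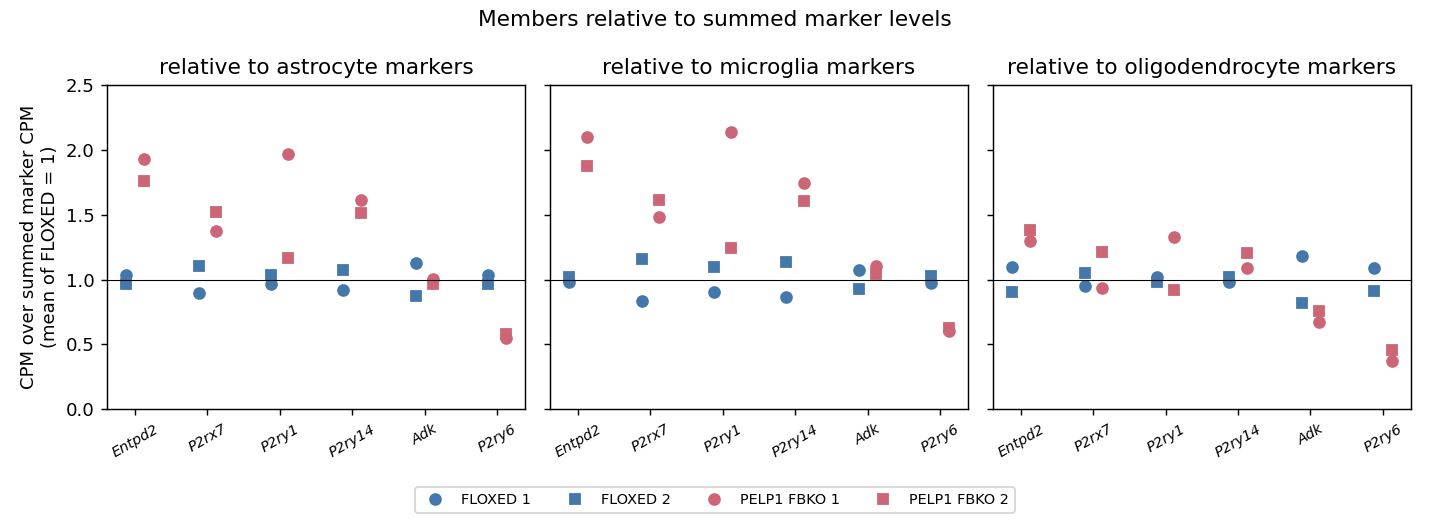
CPM of 6 members divided by the summed CPM of astrocyte, microglial or oligodendrocyte markers in the same library, with the FLOXED mean set to 1 (y axis, 1 point per library). Entpd2 stays above the control libraries in all 3 panels, Adk lies inside the control range in the astrocyte panel, and P2rx7 and P2ry1 overlap the controls in the oligodendrocyte panel.

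Other genes of purine metabolism and signalling were taken from a list of 44, of which 43 were in the files and 35 were tested. By an unadjusted p under 0.05, 9 of the 35 lay higher, against 10.1% of all genes, and 2 lay lower, against 5.55%, while 0 passed the adjusted threshold of the quasi-likelihood test. The higher count was 5 without FLOXED 1 and 4 without PELP1 FBKO 2. The lower count was 7 without FLOXED 2, 1 without FLOXED 1 and 0 without PELP1 FBKO 1. The smallest p was that of Enpp2, whose enzyme autotaxin makes lysophosphatidic acid and belongs to the nucleotide pyrophosphatase family, at 118 and 131 CPM in FLOXED against 227 and 210 CPM in PELP1 FBKO (0.81, SE 0.134, adjusted p = 0.0685). Enpp2 is also a gene of oligodendrocytes and choroid plexus; the 6 choroid and ependymal markers summed to 356 and 107 CPM in FLOXED against 67.3 and 89.6 CPM in PELP1 FBKO. Most of that sum in FLOXED 1 was Ttr, the transthyretin gene, at 324 and 67.5 CPM in FLOXED against 21.4 and 33.9 CPM in PELP1 FBKO. Of the 6 markers 4 had a positive fold change, among them Foxj1, a gene of ciliated cells, at 1.45 (SE 0.329) without overlap. The part of these cells in the Enpp2 difference was not tested. P2ry12, the ADP receptor that guides microglial processes, was at 26.9 and 21.7 against 35.3 and 37.3 CPM (0.58, SE 0.160, adjusted p = 0.149). Its neighbour P2ry13 was at 10.9 and 13.1 against 14.5 and 20.4 CPM (0.54, SE 0.213). The microglial nucleotide receptor genes P2ry12 and P2ry13 thus lay higher in both knockout libraries, and P2ry6 lower. Microglial markers were split as well: of 10, 5 were higher in both knockout libraries and 2, Fcrls and Olfml3, lower in both.

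Of the other enzymes that act on extracellular nucleotides, Enpp1 had a fold change of 0.68 (SE 0.280) and Alpl, tissue-nonspecific alkaline phosphatase, 0.51 (SE 0.199). Acpp, an acid phosphatase that can form adenosine from AMP, had 19 and 37 reads in FLOXED and 9 and 13 in PELP1 FBKO (-1.43, SE 0.461, adjusted p = 0.201). Inside the cell, the mitochondrial adenylate kinase gene Ak3 had 0.45 (SE 0.130) and the adenylosuccinate synthase gene Adssl1 0.50 (SE 0.172), while the salvage gene Hprt had -0.30 (SE 0.128). Ahcy, which releases adenosine from S-adenosylhomocysteine, had 35 and 10 reads in FLOXED and 80 in each PELP1 FBKO library (1.66, SE 0.538). The urate oxidase gene Uox, with between 2 and 25 reads, completed the 9 higher genes (1.68, SE 0.672). Slc17a9, the vesicular ATP transporter gene, had between 3 and 10 reads per library and was not tested.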

How the data were processed

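RNA-seq of 4 hippocampal libraries (TruSeq, 50-base single reads) was analysed. Values are raw read counts, as deposited, 1 per gene symbol and not normalized; the series text says that duplicate sequencing runs were combined. Per the submitters' processing notes the build was mm9 and the tools were HTSeq, TopHat2 2.0.8b and CASAVA 1.8.2; the series text names a human build. HTSeq's version, strand setting and gene models: not given in the sources used here. Its summary rows stayed out of library sizes: between 14.7% and 15.7% of uniquely placed reads lay in no gene and about 1% were ambiguous (0.972% to 1.05%). Alignments that were not unique made up 38.5% to 47.7% of all entries and were not counted.

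The test was edgeR 4.0.16 in R 4.3.3 (TMM, filterByExpr, quasi-likelihood F test of genotype) on 14978 genes; p-values were adjusted by Benjamini-Hochberg, with 0.05 as the threshold. Standard errors were derived from the F statistic. Alternatives were DESeq2 1.42.0, limma-voom (limma 3.58.1), the edgeR exact test, other scalings and count filters, a replicate block and leaving out each library. A crossed block was added after seeing the data. The tests were checked on simulated data. Chi-square per degree of freedom between replicates was 23.3 in FLOXED and 17.4 in PELP1 FBKO. Each library was counted as a sample, but these values cannot show whether replicates are separate animals. Limits for genes with 0 reads cover counting error only.

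The members and lists were chosen with earlier results of these data known. Named were all members and, of the related genes, those with an unadjusted p under 0.05. Slc17a9 was named after its values were seen. Exonic lengths came from GENCODE vM21 (basic), a newer build than mm9, so levels per kilobase are approximate. Promoter windows came from RefSeq (GRCm38.p6), where 27 of 35 members had an entry.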

Additional observations from a re-analysis of the deposited data

How the results depend on the processing

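Every fold change of the 30 members tested kept its sign under the changes of test, scaling, filter and block. Signs turned only with a library left out, where the fold change of Ada ranged from -0.267 to 0.197 (positive without FLOXED 2), Adora1 from -0.260 to 0.0636 (positive without FLOXED 2 and without PELP1 FBKO 2), Adora2a from -0.0625 to 0.394, P2rx4 from -0.166 to 0.235 and Panx2 from -0.342 to 0.0893 (all 3 without PELP1 FBKO 2), Entpd3 from -0.122 to 0.393 (without PELP1 FBKO 1), Entpd7 from -0.170 to 0.251 (without FLOXED 1 and without PELP1 FBKO 1) and Slc29a1 from -0.0770 to 0.159 (without FLOXED 2 and without PELP1 FBKO 1).

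Counts of genes past the adjusted threshold depended on the test. Over all genes, where the quasi-likelihood test gave 0 higher and 0 lower, DESeq2 gave 319 and 130, the exact test 562 and 197, DESeq2 size factors 13 and 4, library size alone 20 and 3, no count filter 278 and 81, and at least 50 reads in every library 39 and 4. Left-out libraries gave 0 to 457 higher and 0 to 324 lower. Members past it, all higher, were 4 by the exact test, 1 each by DESeq2, with DESeq2 size factors, with library size alone, without a filter and with 50 reads, and 0 to 2 with a library left out. The 1 member was Entpd2. Limma-voom called 0. Members at an unadjusted p under 0.05 were 5 to 8 higher and 0 to 3 lower with a library left out. Related genes were 4 to 7 higher and 0 to 7 lower. Their lower count was 1 by DESeq2, limma-voom, library size alone and without a filter, and 0 with 50 reads. The median fold change of the tested members ranged from 0.106 to 0.154 with a library left out.

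Replicate numbers come from the titles, and nothing says that they pair animals; deviations of same-numbered libraries correlated at -0.163 over 14978 genes. With the replicate block 387 genes were higher and 179 lower, 2 members were called higher (Entpd2, and P2rx7 with adjusted p = 0.0194), and 1 related gene was lower at an unadjusted p under 0.05. The crossed block, chosen after seeing the data, gave 223 and 91 genes and 1 member higher.

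Depth limits P2rx1, P2rx2, P2ry4, Entpd8 and other genes with few reads. With 2 libraries a genotype, 1 library decides several calls.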
